A study of Homo sapiens with 5 samples.

Results

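The genes described here are 10 hypoxia-inducible targets of the hypoxia-inducible factors (HIF): VEGFA, CA9, BNIP3, ADM, NDRG1, EGLN3, ANKRD37, SLC2A1, PDK1 and KDM3A. They were chosen by gene symbol, as well-known HIF targets, by a rule that uses no measured value though earlier results of these data were known, and each had a row among the 19716 genes with a read in at least 1 library. Reads were found for 9 of the 10 genes in 4 libraries and for all 10 in the library of the dCas9-BFP-DNMT3B fusion. The cells were HEK293T, derived from human embryonic kidney and expressing the large T antigen of SV40, and were transfected with X-tremeGENE 9 and 1 ug of plasmid DNA. In 4 groups, 5 sgRNAs directed to the uPA promoter (uPA is the product of PLAU) were given together with a nuclease-deficient Cas9 joined to blue fluorescent protein (BFP) and to the catalytic domain of DNMT1, DNMT3A or DNMT3B, or to EGFP, all driven by the PGK promoter. These fusions, named dCas9-BFP-DNMT1 and so on in the labels, are called by their last part below. The control cells received the cloning plasmid pUC19, which codes for none of these, so that they lacked the dCas9 protein, the sgRNAs and BFP together. According to the labels, RNA of every group came from BFP-positive cells sorted 48 hours after transfection, although pUC19 carries no BFP. Each group was 1 library of poly(A) RNA. A comparison therefore sets 1 library against another and has no replicate check, and a p-value from 2 libraries says nothing on the spread between cultures.

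HIF is a dimer of an oxygen-regulated alpha subunit (HIF1A or EPAS1) and ARNT. In oxygenated cells prolyl hydroxylases of the EGLN family mark the alpha subunit for the VHL ubiquitin ligase, and the subunit is destroyed. When oxygen is scarce it accumulates, pairs with ARNT and binds the hypoxia response element, whose core is ACGTG or GCGTG, near genes for blood vessel growth, glucose uptake, glycolysis, pH control and mitochondrial turnover. No oxygen treatment was part of the experiment, so the values below are levels in cultured cells under the conditions the labels give.

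Promoter stretches with the HIF core are shown first, since these letters are what the members are known to share and since the core holds a CpG, the dinucleotide that a DNA methyltransferase modifies. RefSeq promoters, 250 bases before to 50 bases after the transcription start (GRCh38.p14 table), were held for 8 of the 10 members, and VEGFA and NDRG1 had no entry. All were found letter for letter in GRCh37, whose coordinates are given. Both strands were searched for ACGTG and for GCGTG, whose reverse complements read CACGT for the first core, CACGC for the second. KDM3A and PDK1 had a second window, which made 10 windows. ACGTG was present in 4 of the 10 windows (1 each of ANKRD37, BNIP3, CA9 and PDK1), against 21.4% of all 35116 RefSeq promoters of the same length. Either core was present in 8 of the 10 windows, against 48.4% of all promoters, and EGLN3 was the single member with neither. The windows of KDM3A overlap, and the same GCGTG match is counted in each. Of the 8 matches to ACGTG, 4 came from the palindrome CACGTG, which is counted on both strands and is also the E-box of other factors. The member windows held between 6 and 48 CpGs, with a median of 28.5, against a median of 14 over all promoters. The shares of promoters with a core were not matched for CpG content. These are matches of letters, not sites shown to be bound, and no methylation was measured in these files.

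The stretches below are written 5′ to 3′ on the strand of the gene, with the core in capitals. The BNIP3 stretch holds the palindrome between matches to GCGTG (chr10:133795518-133795587, minus strand, outside annotated exons). The ANKRD37 stretch holds the palindrome and a separate ACGTG (chr4:186317815-186317874, plus strand, inside the span but outside the exons of longer ANKRD37 transcripts). The PDK1 stretch holds 2 matches in the 30 bases before the start (chr2:173420788-173420817, plus strand, over an exon of other PDK1 transcripts and of PDK1-AS1), and the CA9 stretch holds 1 (chr9:35673895-35673924, plus strand, over an exon of ARHGEF39 on the other strand). The ADM (chr11:10326490-10326549, plus strand, outside annotated exons), KDM3A (chr2:86668454-86668483, plus strand, over an exon of another KDM3A transcript) and SLC2A1 (chr1:43424497-43424526, minus strand, in the first exon) stretches hold GCGTG.
ANKRD37: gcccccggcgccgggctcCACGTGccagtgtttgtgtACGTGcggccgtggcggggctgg
BNIP3: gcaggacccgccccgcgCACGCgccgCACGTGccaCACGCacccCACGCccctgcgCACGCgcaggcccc
PDK1: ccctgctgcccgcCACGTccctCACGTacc
CA9: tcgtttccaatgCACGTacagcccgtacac
ADM: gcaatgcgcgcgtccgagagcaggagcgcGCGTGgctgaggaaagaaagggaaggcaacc
KDM3A: gtccgggaggctgtGCGTGtcttgtgagag
SLC2A1: tagcaacagcgaGCGTGccggtcgctagtc

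The libraries held 26.25 M to 36.14 M counted reads (M, megareads), with pUC19 the deepest. The label check held where it could be made. DNMT1, DNMT3A and DNMT3B stood at 14580, 16750 and 33140 TPM in the libraries named for them. TPM is the deposited unit, reads per transcript length scaled to a common library total. PLAU was at 2.48 TPM in pUC19 against 0.0331 to 0.181 in the 4 fusion libraries. No gene of the check marks the EGFP fusion, which PLAU sets apart only from pUC19. All 7 genes taken as marks of HEK293T cells had reads in each library. Their summed level was 1255 TPM in pUC19 and 780.5 to 958.6 in the fusions, where NEFM, NEFL and IRS4 were called lower in all 4, at 34.3 to 60.2 against 193 TPM for NEFM, while VIM was at 463 to 599 against 437 TPM and KRT8 at 50.96 to 70.8 against 36.1 TPM in pUC19. Marks of blood, endothelium, fibroblasts, liver and red cells summed to 6.69 to 11.2 TPM, with 6 or 7 of the 7 genes that had a row read in each library, HBA1 at 0 in EGFP, ALB at 0 in DNMT3B and DCN at 0 in DNMT1 and DNMT3A. The part that these differences have in the members' values was not tested. In sorted bulk cells, fewer cells that express a gene and less RNA per cell cannot be told apart.

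The members spanned a wide range of levels in the pUC19 control. On the TPM scale, which allows genes to be compared, BNIP3 was highest at 131 (95% exact counting interval 127 to 136), followed by NDRG1 at 71.5 (69.3 to 73.7), KDM3A at 44.1 (42.7 to 45.6) and VEGFA at 36.4 (34.9 to 38.0). SLC2A1 at 31.3 (29.9 to 32.8) and PDK1 at 30.8 (29.5 to 32.1) did not differ beyond their counting intervals, nor did EGLN3 at 12.7 (11.6 to 13.8) and ADM at 12.0 (10.7 to 13.5). ANKRD37 followed at 0.940 (0.514 to 1.58), and CA9 had no read. All intervals cover counting error only.

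**Figure D1:**
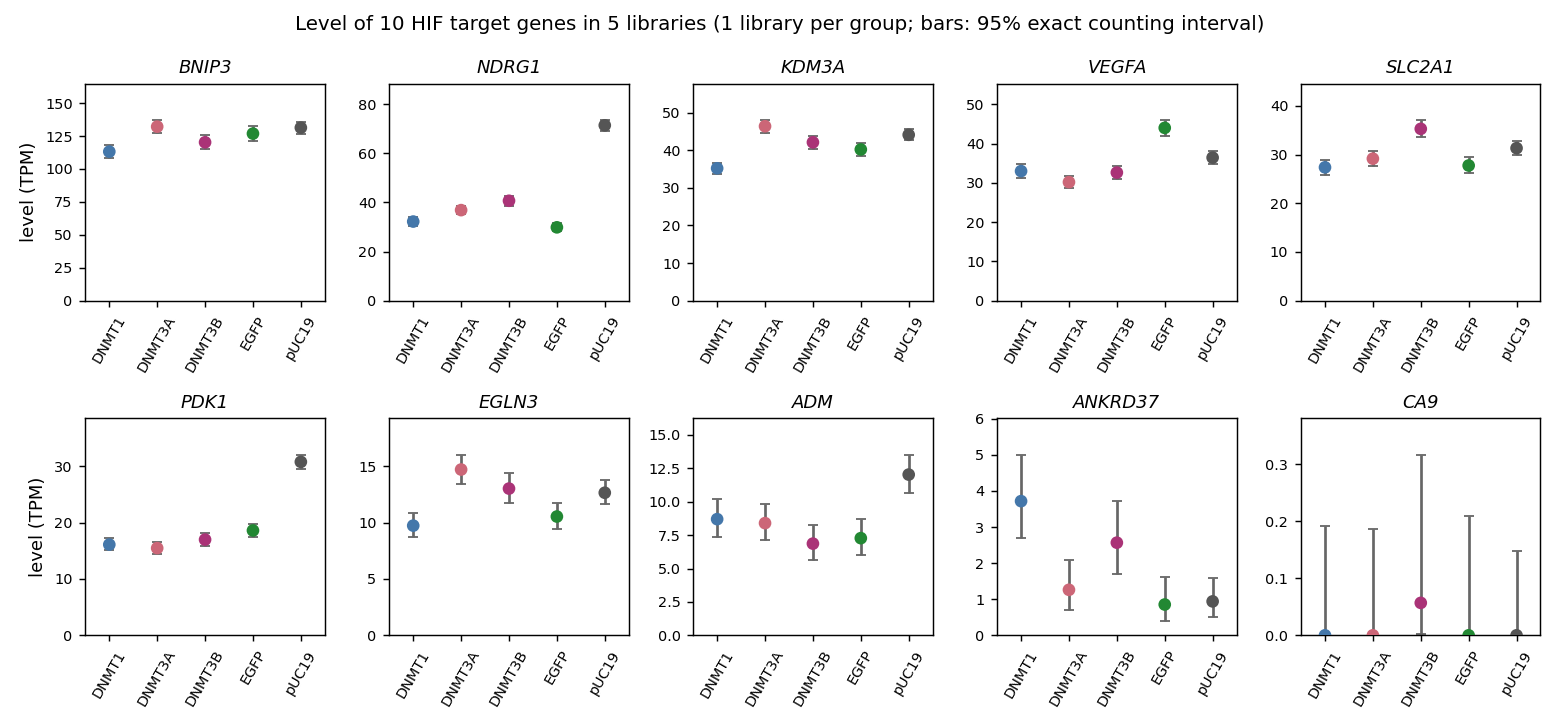
Level (TPM, linear axis from 0) of each of the 10 HIF target genes in the 4 fusion libraries and the pUC19 library, with 1 point per library and bars for the 95% exact counting interval. NDRG1, PDK1 and ADM have their pUC19 point above all 4 fusion points, ANKRD37 is highest in DNMT1 at 3.72 TPM, and CA9 lies at or near 0 throughout.

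The first comparison asked how each fusion library stood against the control. A gene was called at a Benjamini-Hochberg adjusted p of at most 0.001 in a two-sided exact binomial test of its reads and at least a 2-fold ratio of TPM + 0.1. NDRG1 was called lower in the DNMT1 and EGFP fusions, ANKRD37 was called higher in the DNMT1 fusion, and no other member was called. By comparison, the DNMT1 library had 1 of 9 tested members called higher and 1 called lower, where 1.53% and 3.63% of all genes tested were called higher and lower. The EGFP library had 0 of 9 higher and 1 of 9 lower, against a background of 2.6% and 3.1%. The DNMT3A library had none of 9 called in either direction (background 4.4% higher, 4.96% lower), and the DNMT3B library none of 10 (4.47% higher, 4.29% lower). The members' median log2 ratio was -0.32, -0.10, -0.10 and -0.17 in DNMT1, DNMT3A, DNMT3B and EGFP, beside -0.15, -0.06, -0.05 and -0.003 over all genes tested. The DNMT3B median includes CA9, which had 1 read there and 0 in pUC19. All 4 comparisons share the 1 pUC19 library. The pUC19 level lay above all 4 fusions for 3 of the 10 members (NDRG1, PDK1 and ADM), where 30.9% of all genes did, and below all 4 for none, where 19.8% of all genes did. Scaling by TMM (edgeR's trimmed mean of M-values) moved the median of all genes in DNMT1 against pUC19 by 0.12 on the log2 scale, from -0.15 to -0.03, and its calls over all genes from 291 higher and 691 lower to 402 higher and 469 lower. No member changed sign against pUC19 under that or any other setting tried for these library pairs.

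**Figure D2:**
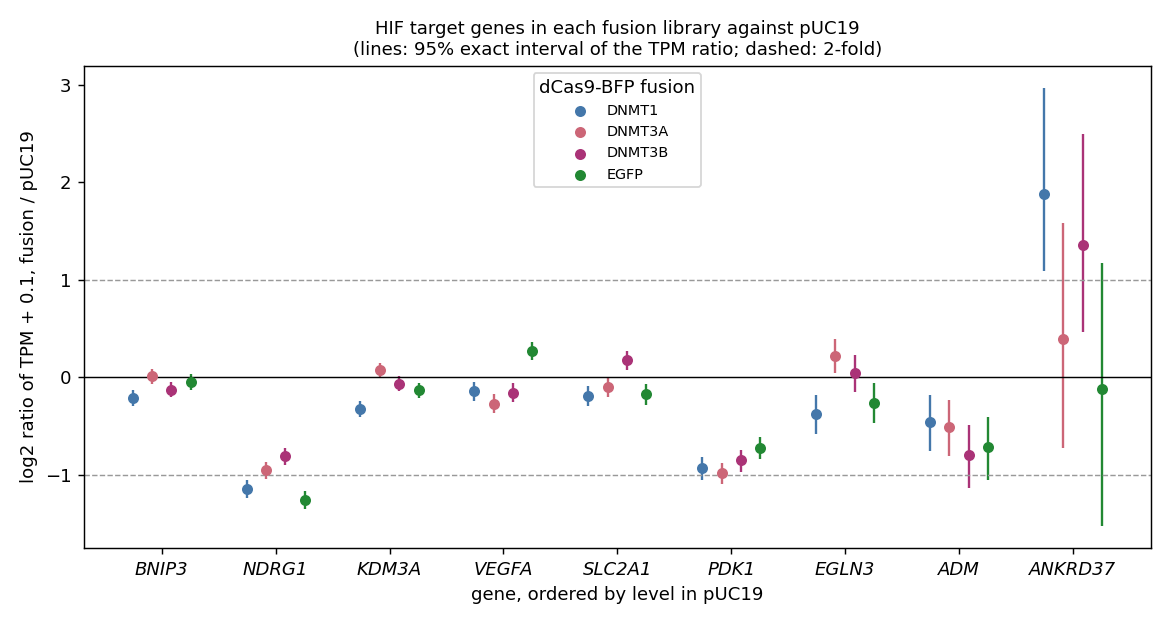
log2 ratio of TPM + 0.1 of each fusion library to pUC19 (vertical axis) for the 9 members with reads in pUC19, ordered by their pUC19 level, with 95% exact intervals of the TPM ratio as lines and dashed lines at 2-fold. NDRG1 and PDK1 lie between -0.72 and -1.26 in all 4 fusions, ANKRD37 reaches 1.88 in DNMT1, and BNIP3, KDM3A, VEGFA, SLC2A1 and EGLN3 scatter around 0.

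NDRG1, a stress-induced protein whose loss causes a hereditary neuropathy and whose RNA hypoxia is known to induce, was the member with the widest gap to the control among those with over 100 reads in every library. Its level was 71.5 TPM in pUC19 (4011 reads) against 32.2 in DNMT1 (1404 reads), 36.9 in DNMT3A (1654 reads), 40.7 in DNMT3B (1613 reads) and 29.9 in EGFP (1187 reads). All 4 fusions lay below the control, EGFP lowest, and their own range was 1.36-fold. The TPM ratio to pUC19 was 45.1% in DNMT1 (95% exact interval of the ratio 0.424 to 0.479), 51.6% in DNMT3A (0.487 to 0.547), 56.9% in DNMT3B (0.537 to 0.603) and 41.8% in EGFP (0.391 to 0.446). The exact test gave adjusted p = 9.47e-155 for DNMT1 and 1.25e-184 for EGFP, and DNMT3A and DNMT3B stayed under the 2-fold limit with log2 ratios of -0.95 and -0.81. With a coefficient of variation of 0.2 between libraries assumed in edgeR's exact test, the adjusted p became 0.307 in DNMT1 and 0.0982 in EGFP and both calls were lost. The gene lies at chr8:134249418-134309495 (GRCh37, minus strand), and 24.9% of its exon bases overlap a long noncoding RNA on the same strand.

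PDK1 and SLC2A1 belong to glucose metabolism, and CA9 to pH control. PDK1, the kinase that inhibits pyruvate dehydrogenase and so keeps pyruvate out of the mitochondrial citric acid cycle, stood at 30.8 TPM in pUC19 (2245 reads) against 16.1 in DNMT1, 15.5 in DNMT3A, 16.98 in DNMT3B and 18.6 in EGFP (875 to 961 reads). The 4 fusions fell in a narrow band, 1.2-fold from lowest to highest, and the control was outside it. The log2 ratios were -0.93, -0.99, -0.85 and -0.72, all short of the 2-fold limit, so that no library was called although the adjusted p of the exact test ranged from 1.3e-76 in DNMT3A to 3.95e-44 in EGFP. The interval of the ratio included 0.5 in DNMT1 (0.484 to 0.565) and DNMT3A (0.465 to 0.544) and lay above it in DNMT3B (0.51 to 0.597) and EGFP (0.56 to 0.652). PDK1 lies at chr2:173420818-173473397 on the plus strand.

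SLC2A1, which encodes the glucose transporter GLUT1, was at 27.4 TPM in DNMT1, 29.2 in DNMT3A, 35.3 in DNMT3B, 27.8 in EGFP and 31.3 in pUC19. The control sat inside the range of the fusions, and its log2 ratios to it ran from -0.19 to 0.17. CA9, a carbonic anhydrase of the cell surface and a widely used hypoxia marker, had 1 read in the DNMT3B library (0.0569 TPM) and 0 reads in the other 4. A count of 0 allows up to 3 reads, which correspond to 0.121 to 0.170 TPM in these 4 libraries, so CA9 was not detectable at this depth and no ratio is given for it. Its 1 read does enter the members' median in DNMT3B against pUC19. Of its exon bases, 36.9% overlap ARHGEF39 on the other strand, which had 645 to 1563 reads per library. That gene is named for its position, after its values were seen.

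VEGFA and ADM are secreted ligands that act on blood vessels. VEGFA, the main driver of new vessel growth, was at 32.97 TPM in DNMT1, 30.2 in DNMT3A, 32.6 in DNMT3B, 43.98 in EGFP and 36.4 in pUC19. EGFP was the only fusion above the control, with a log2 ratio of 0.27, while the 3 methyltransferase fusions had -0.14 to -0.27, and none was called. ADM, the precursor of the vasodilator adrenomedullin, was at 12.0 TPM in pUC19 (278 reads) against 8.70 in DNMT1 (156 reads), 8.40 in DNMT3A (155), 6.86 in DNMT3B (112) and 7.27 in EGFP (119). All 4 fusions lay below the control, at 72.3%, 69.8%, 57.0% and 60.4% of it, and none was called. The intervals of the ratio were 0.59 to 0.882 in DNMT1 and 0.454 to 0.713 in DNMT3B. VEGFA lies at chr6:43737948-43754224 and ADM at chr11:10326620-10328944, both on the plus strand.

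BNIP3, a mitochondrial outer membrane protein that marks mitochondria for autophagy, had the highest level of the 10 and varied least among those with reads in all libraries. It was at 113 TPM in DNMT1, 132 in DNMT3A, 120 in DNMT3B, 127 in EGFP and 131 in pUC19, a range of 1.17-fold over all 5 libraries. None of its ratios was called. BNIP3 has processed copies elsewhere in the genome. The authors counted uniquely mapped reads, and how many reads of BNIP3 this left out is not given in the sources used here. It lies at chr10:133781188-133795427 on the minus strand.

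EGLN3 and KDM3A act on HIF signalling and on chromatin. EGLN3, the prolyl hydroxylase PHD3 that HIF itself induces in a feedback loop, was at 9.73 TPM in DNMT1, 14.7 in DNMT3A, 13.02 in DNMT3B, 10.5 in EGFP and 12.7 in pUC19. DNMT1 and EGFP lay below the control and DNMT3A and DNMT3B above it, with log2 ratios of -0.37, -0.26, 0.22 and 0.04, none called. KDM3A, a demethylase of histone H3 lysine 9, was at 35.2 TPM in DNMT1, 46.4 in DNMT3A, 42.1 in DNMT3B, 40.2 in EGFP and 44.1 in pUC19, with DNMT1 the lowest and no call. EGLN3 lies at chr14:34393433-34420280 (minus strand) and KDM3A at chr2:86668494-86719839 (plus strand).

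ANKRD37, a small ankyrin-repeat protein whose RNA is a common entry in hypoxia signatures, was the only member called higher. It was at 3.72 TPM in DNMT1 (43 reads), 1.26 in DNMT3A (15 reads), 2.57 in DNMT3B (27 reads), 0.853 in EGFP (9 reads) and 0.940 in pUC19 (14 reads). DNMT1 and DNMT3B were high, and DNMT3A, EGFP and pUC19 lay within each other's counting intervals. Against pUC19 the log2 ratio was 1.88 in DNMT1 (adjusted p = 5.68e-06 in the exact test, interval of the TPM ratio 2.12 to 7.83) and 1.36 in DNMT3B (adjusted p = 0.00983, interval 1.38 to 5.63, not called). The call in DNMT1 was lost when a coefficient of variation of 0.2 was assumed (adjusted p = 0.0475). The part of the transcript listed as covered was 58.2% from the 43 reads of DNMT1 and 73.8% from the 14 reads of pUC19. The gene lies at chr4:186317995-186321395 (plus strand), and 54.7% of its exon bases overlap exons of UFSP2 on the other strand. The counting is not stated to use strand, so reads over the shared bases cannot be told apart by gene. UFSP2, named for this overlap after its values were seen, was at 27.5 TPM in DNMT1, 25.5 in DNMT3A, 25.5 in DNMT3B, 33.4 in EGFP and 23.7 in pUC19. Its part in the ANKRD37 values was not tested.

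The 4 fusions were then set against pUC19 together in edgeR's quasi-likelihood test, where the spread is that between different fusions and not between replicates. CA9 did not pass the filter on low counts, and none of the 9 members tested was called at an adjusted p under 0.05, where 0.0937% of all genes tested were called higher and 0.644% lower. Unadjusted p-values under 0.05 were found for 2 of the 9 members, where 18% of all genes tested had one. NDRG1 had a log2 fold change of -0.98 ± 0.21 (SE) with an adjusted p of 0.0696, and PDK1 had -0.82 ± 0.20 with 0.0890. ADM had -0.57 ± 0.29 (adjusted p = 0.336) and ANKRD37 1.22 ± 0.88 (adjusted p = 0.492), and the other 5 members had log2 fold changes between -0.06 and -0.01. With DESeq2's Wald test in place of edgeR, both NDRG1 (adjusted p = 0.0046) and PDK1 (0.0103) were called, where DESeq2 called 7.1% of all genes it tested. Without the filter on low counts, and with an offset for GC content and length, NDRG1 was called by edgeR at an adjusted p of 0.0451 and 0.0371, where 1.28% and 0.851% of all genes were called.

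Between fusions, ANKRD37 was the single member called, in 1 of the 4 pairs compared. DNMT3A against DNMT3B had no member of 10 called (background 0.123% higher, 0.0913% lower). DNMT3A against EGFP (background 2.02% higher, 1.95% lower) and DNMT3B against EGFP (2.09% higher, 1.42% lower) had none called. DNMT1 against EGFP had 1 of 9 called higher, ANKRD37 with a log2 ratio of 2.002 (adjusted p = 2.44e-05 in the exact test, interval of the TPM ratio 2.1 to 10.2), and none lower, against 0.473% and 0.966% of all genes. TMM moved the median of all genes in this pair by 0.13, from -0.13 to 0.00, and the calls over all genes from 89 higher and 182 lower to 151 higher and 108 lower. The VEGFA level was 75.0% of that in EGFP in DNMT1, 68.6% in DNMT3A and 74.1% in DNMT3B, which did not reach the 2-fold limit.

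The fusions with the catalytic domain of a de novo methyltransferase, DNMT3A and DNMT3B, were also compared with DNMT1 and EGFP as 2 libraries against 2. None of 9 members was called by edgeR or by DESeq2. Of all genes tested, edgeR called 6.9% higher and 4.15% lower. DESeq2 called 1374 of the 12992 genes it tested higher and 772 lower. Unadjusted p-values under 0.05 were found for 2 of the 9 members, where 28.8% of all genes tested had one: EGLN3 with a log2 fold change of 0.40 ± 0.17 (SE, adjusted p = 0.156 in edgeR) and VEGFA with -0.34 ± 0.15 (adjusted p = 0.159). Both DNMT3A and DNMT3B lay above both DNMT1 and EGFP for 4 of 10 members (EGLN3, KDM3A, NDRG1 and SLC2A1), where 28.3% of all genes did, and below both for 1 (VEGFA), where 22.8% did. For NDRG1 the fold change was 0.26 ± 0.14 with an adjusted p of 0.258. Without the DNMT1 library, VEGFA (-0.47, adjusted p = 0.0136) and NDRG1 (0.39, adjusted p = 0.0460) were called by the same test, which then called 22.5% of all genes.

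The rest of the HIF pathway was described from lists chosen with earlier results of these data known, and no set test was run on them. Among 40 other HIF targets, 0 were called higher and 4 lower in DNMT1, 1 higher and 6 lower in DNMT3A, 1 higher and 3 lower in DNMT3B, and 0 higher and 1 lower in EGFP, each against pUC19. Of all genes tested, 1.53%, 4.4%, 4.47% and 2.6% were called higher and 3.63%, 4.96%, 4.29% and 3.1% lower in that order. The list's median log2 ratio was -0.34, -0.18, -0.21 and -0.20, beside -0.15, -0.06, -0.05 and -0.003 over all genes. LDHA, which turns pyruvate into lactate and so takes up the pyruvate that PDK1 diverts, was at 1073 TPM in pUC19 and 499, 449, 456 and 563 in DNMT1, DNMT3A, DNMT3B and EGFP. It was called lower in the 3 methyltransferase fusions and had a log2 ratio of -0.93 in EGFP, and edgeR called it over the 4 fusions (-1.07 ± 0.18 SE, adjusted p = 0.0444). LDHA and PGK1 have pseudogene copies, so their counts are uncertain to that extent. Outside the naming rule, and seen in the values first, the lower calls in DNMT1 included HK2 (15.5 against 31.6 TPM) and HILPDA (19.9 against 48.5 TPM). HK2 was also called lower in DNMT3A (14.7 TPM) and was low without a call in DNMT3B (15.96 TPM) and EGFP (18.1 TPM). HILPDA was called lower in EGFP as its only call (22.8 TPM), and lay below pUC19 without a call in DNMT3A and DNMT3B. LOX and TMEM45A were called lower in both DNMT3A and DNMT3B, and completed the lower calls in DNMT3B. LOX was below pUC19 without a call in DNMT1 and EGFP, and TMEM45A in EGFP but not in DNMT1. The remaining lower calls in DNMT3A were CCNG2 and P4HA1. STC2, a secreted stress-induced glycoprotein also named outside the rule, was the single higher call in DNMT3A (177 TPM) and in DNMT3B (170 TPM), against 79.2 TPM in pUC19. Without a call, STC2 was nearly as high in EGFP (154 TPM) and stood at 88.2 TPM in DNMT1.

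**Figure D3:**
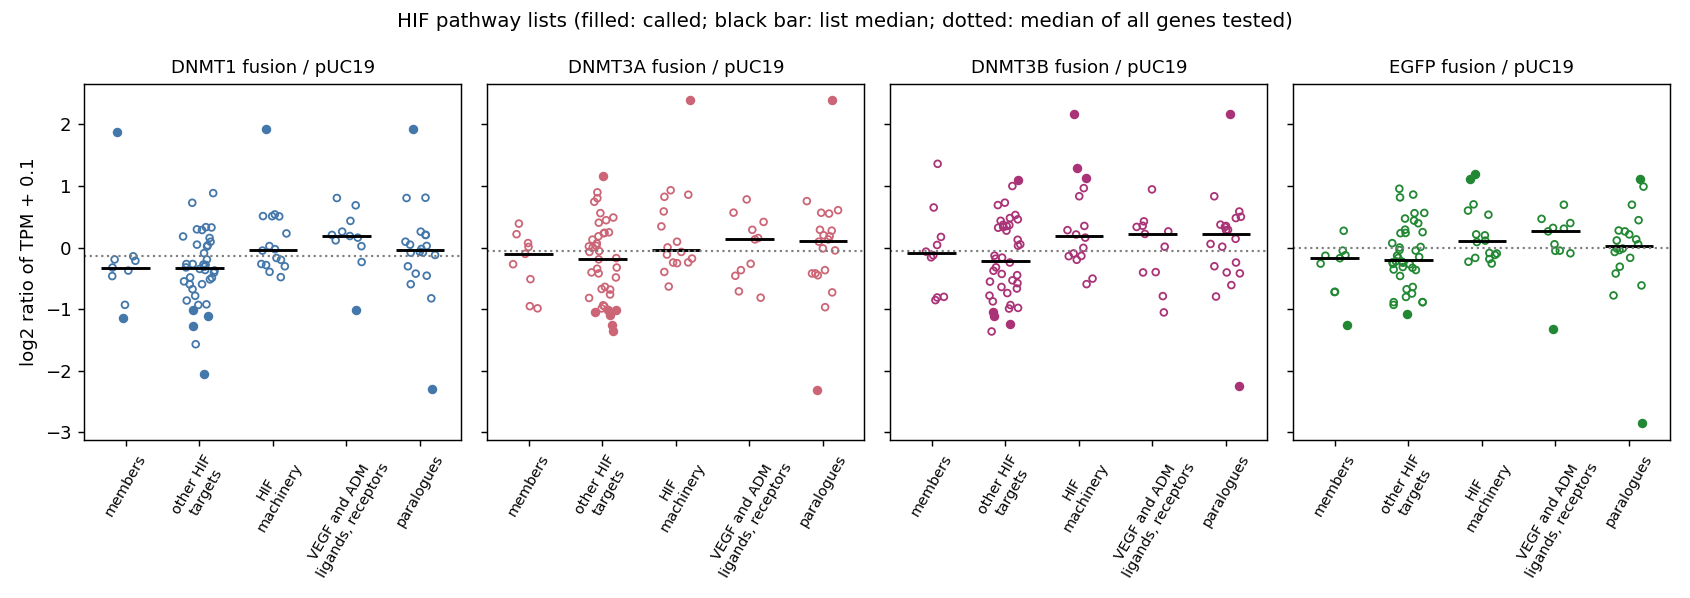
log2 ratio of TPM + 0.1 of each fusion to pUC19 (vertical axis) for the genes of 5 HIF pathway lists, 1 point per gene, filled where called, with a black bar at each list's median and a dotted line at the median of all genes tested. The members' medians run from -0.32 in DNMT1 to -0.10 in DNMT3A and DNMT3B, and those of the other HIF targets from -0.34 to -0.18. CA9 is among the members in DNMT3B only.

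Of the 16 genes of the HIF machinery, 1 was called higher in DNMT1, 1 in DNMT3A, 3 in DNMT3B and 2 in EGFP against pUC19, and none was called lower in any of the 4. Of all genes tested, 1.53%, 4.4%, 4.47% and 2.6% were called higher and 3.63%, 4.96%, 4.29% and 3.1% lower in that order. Their median log2 ratio was -0.04, -0.04, 0.19 and 0.10, beside the -0.15, -0.06, -0.05 and -0.003 of all genes. EGLN2, the prolyl hydroxylase PHD1, was called higher in all 4 fusions, at 3.64, 5.10, 4.35 and 2.03 TPM in DNMT1, DNMT3A, DNMT3B and EGFP against 0.886 in pUC19. Its 32 to 147 reads covered 3.88% to 12.7% of the transcript, and it shares sequence with the RAB4B-EGLN2 readthrough gene, so its level is uncertain. Beyond EGLN2, the calls against pUC19 were CREBBP, a coactivator of HIF, and ARNT2, both higher in DNMT3B, and HIF1AN, the asparaginyl hydroxylase that limits HIF activity, higher in EGFP at 76.5 against 33.5 TPM. ARNT2 and HIF1AN fall outside the naming rule. HIF1A itself, named for its place in the pathway, was at 56.0 TPM in DNMT1, 59.9 in DNMT3A, 70.5 in DNMT3B, 55.3 in EGFP and 63.0 in pUC19, and EPAS1 ran from 18.8 in DNMT1 to 26.7 in EGFP with 24.7 in pUC19. RNA of the alpha subunits does not measure their protein. Between the 2 de novo methyltransferase fusions and the other 2, edgeR called CREBBP higher (0.55 ± 0.14 SE, adjusted p = 0.0370) and CITED2, which competes with HIF for its coactivators, lower (-0.48 ± 0.13, with an adjusted p just inside the 0.05 limit). Of all genes tested there, 6.9% were called higher and 4.15% lower.

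In the same comparison 3 of 38 tested other HIF targets were called higher and 4 lower, where 6.9% and 4.15% of all genes tested were. DDIT4, an inhibitor of mTOR signalling, had a log2 fold change of 0.69 ± 0.11 (SE) and PPFIA4 of 1.34 ± 0.21. PGK1, a glycolytic kinase, had -0.54 ± 0.12, the cyclin CCNG2 -0.98 ± 0.25 and the transferrin receptor TFRC -0.61 ± 0.15. DDIT4 was at 316 and 323 TPM in DNMT3A and DNMT3B against 180 in DNMT1 and 203 in EGFP, with 239 in pUC19. PPFIA4 was at 4.91 and 4.57 against 1.69 and 1.93 in the same order, with 3.30 in pUC19. TFRC in DNMT3A (78.3) and DNMT3B (88.9) was near pUC19 (81.5), with 99.95 in DNMT1 and EGFP highest at 148. CCNG2 was at 4.36, 6.58, 7.77 and 13.2 in DNMT3A, DNMT3B, DNMT1 and EGFP, with 8.90 in pUC19. PGK1 was at 295, 275, 382 and 420 in that order, with 460 in pUC19. The other 2 called, past the number of genes the naming rule allows per list, were PFKFB3, higher, and TMEM45A, lower.

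Of the 12 VEGF and adrenomedullin ligands and receptors, 11 had a row, with a median log2 ratio to pUC19 of 0.19, 0.13, 0.22 and 0.26 in DNMT1, DNMT3A, DNMT3B and EGFP. The median over all genes tested was -0.15, -0.06, -0.05 and -0.003. RAMP2, the partner of the adrenomedullin receptor and named outside the rule, was called lower in DNMT1 (4.20 TPM) and EGFP (3.40) against 8.62 TPM in pUC19, and no other gene of the list was called against pUC19. RAMP2 was also below pUC19, without a call, in DNMT3A (4.86 TPM) and DNMT3B (4.95). Of all genes tested, 1.53%, 4.4%, 4.47% and 2.6% were called higher and 3.63%, 4.96%, 4.29% and 3.1% lower in DNMT1, DNMT3A, DNMT3B and EGFP. The receptors KDR and FLT1 are named for their role and not by the rule. KDR, the main signalling receptor for VEGFA, was at 0.233 to 0.440 TPM, and its relative FLT1 was at 7.61 to 9.51 TPM. VEGFB was at 38.6 and 37.6 TPM in DNMT3A and DNMT3B against 57.4 in DNMT1 and 51.6 in EGFP, with 49.8 in pUC19. In the comparison of 2 fusions with 2, edgeR called it lower (-0.58 ± 0.15 SE, adjusted p = 0.0391), where 4.15% of all genes tested were. VEGFA had the same sign without a call. Its level in DNMT1 (32.97 TPM) was close to that in DNMT3B (32.6), and EGFP stood apart at 43.98.

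Paralogues of the members were read beside them. Among 20 such genes, EGLN2 was called higher and CA2, a cytosolic carbonic anhydrase, lower in all 4 fusions against pUC19, and no other was called. Of all genes tested, 1.53%, 4.4%, 4.47% and 2.6% were called higher and 3.63%, 4.96%, 4.29% and 3.1% lower in DNMT1, DNMT3A, DNMT3B and EGFP. The median log2 ratio of the 20 was -0.05, 0.11, 0.21 and 0.02 in that order, beside -0.15, -0.06, -0.05 and -0.003 over all genes tested. CA2 was at 489 TPM in pUC19 and 99.1, 98.9, 103 and 67.5 in DNMT1, DNMT3A, DNMT3B and EGFP, while CA9 had almost no reads. PDK2 was at 36.4 to 39.2 TPM in all 5 libraries, where PDK1 was at 30.8 in pUC19 and 15.5 to 18.6 in the fusions. PDK3 was at 6.40 TPM in DNMT3A and 8.23 in DNMT3B against 12.9 in DNMT1, 13.7 in EGFP and 12.6 in pUC19, and edgeR called it lower in DNMT3A and DNMT3B (-0.91 ± 0.15 SE, adjusted p = 0.00921). NDRG2 was at 30.7 to 40.7 TPM with 33.4 in pUC19, and NDRG4 was called higher in DNMT3A and DNMT3B against DNMT1 and EGFP (0.50 ± 0.14 SE, adjusted p = 0.0486). In that comparison edgeR called 6.9% of all genes tested higher and 4.15% lower. NDRG3 was at 54.7, 56.0, 56.1 and 60.5 TPM in DNMT1, DNMT3A, DNMT3B and EGFP against 75.1 in pUC19, so all 4 fusions lay below the control without a call. PDK2, NDRG2 and NDRG3 are named as relatives of called or nearly called members, after their values were seen.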

How the data were processed

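RNA of 5 libraries, 1 per group, was sequenced on an Ion Proton instrument. According to the study's methods, the authors removed reads of low quality, with adaptor or under 30 nt, aligned the rest with tmap (version not given in the sources used here) to the RefSeq transcripts of hg19 with at most 3 mismatches, counted uniquely mapped reads per gene and deposited those counts with TPM values and the percent of each gene's length that was covered. The deposited coverage percent is not defined further. TPM depends on the annotated length and on the few genes that fill a library, and in the DNMT1, DNMT3A and DNMT3B libraries the transfected construct is part of the total.

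For a pair of libraries, the counts of each gene entered an exact binomial test, conditional on the library totals and two-sided by doubling the smaller tail, adjusted by Benjamini-Hochberg over all genes with a read in either library. The call limits, an adjusted p of at most 0.001 and 2-fold, follow the study's methods, which name no test. Ratios were taken on TPM + 0.1, and their intervals are exact (Clopper-Pearson) at 95%. The test uses shares of the read total and the ratio uses TPM, and these scales differ by a constant of 0.958 to 1.06 per pair, so that an interval and a p-value near the limit can part. Intervals and the floor of 3 reads cover counting error only. Joint comparisons used edgeR 4.0.16 (glmQLFit and glmQLFTest, TMM, filterByExpr) with DESeq2 1.42.0 as the alternative, in R 4.3.3, on the deposited counts, with 3 and 2 residual degrees of freedom; other values were computed with Python 3.11.15, SciPy 1.17.1 and pandas 2.3.3. The tests were also run on simulated counts, with read sampling only for the pairs. For the joint comparisons the simulated spread was smaller than the coefficients of variation of 0.205 and 0.135 that edgeR estimated. These runs say nothing on the spread between cultures.

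Alternatives were TMM scaling, leaving the DNMT1, DNMT3A and DNMT3B rows out of the totals, a pseudocount of 1 TPM, a minimum of 1 TPM, an assumed coefficient of variation of 0.2, an adjusted p of at most 0.05, DESeq2's size factors, no filter, a GC and length offset (loess span 0.3, available for 89.25% of the genes) and leaving out each fusion library. Positions and exons come from GENCODE v44 on GRCh37. The 10 members and all gene lists were chosen with earlier results of these data known. Beyond the members, the targeted genes and marker genes, a gene of a list was named where it was called in 1 direction in all 4 fusions or in a joint edgeR comparison, up to 6 per list; exceptions are marked in the text. The values of 1 listed gene are not reported here.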

Additional observations from a re-analysis of the deposited data

Results flagged for a closer look

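ANKRD37 differed between the DNMT1 and EGFP fusions when these were compared directly: the log2 ratio of DNMT1 to EGFP was 2.002 on the TPM + 0.1 scale, from 43 and 9 reads (adjusted p = 2.44e-05 in the exact test of the 2 libraries). Against pUC19 the same gene had 1.88 in DNMT1 and -0.13 in EGFP. Over the alternatives for the direct comparison the log2 ratio ran from 1.35 to 2.14, and the adjusted p from 9.75e-06 to 0.24, the last with an assumed coefficient of variation of 0.2. The overlap of ANKRD37 with UFSP2 on the other strand holds here too, and its part in the difference was not tested.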

How the results depend on the processing

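No paired analysis was possible because each group has 1 library. With 1 library a group, the precision of a pair is that of read counting, and the joint comparisons measure the spread between different fusions. Counts of members called moved as follows. With an assumed coefficient of variation of 0.2, 0 members were called in DNMT1 and EGFP against pUC19 and in DNMT1 against EGFP, and calls over all genes fell to 32, 131, 107 and 58 in DNMT1, DNMT3A, DNMT3B and EGFP against pUC19, to 7, 11 and 9 in DNMT1, DNMT3A and DNMT3B against EGFP, and to 3 in DNMT3A against DNMT3B. With an adjusted p of at most 0.05, 1 member, ANKRD37, was called in DNMT3B against pUC19 and 1, again ANKRD37, in DNMT3B against EGFP, and calls over all genes rose to 586, 1177 and 1067 in DNMT1, DNMT3A and DNMT3B against EGFP and to 192 in DNMT3A against DNMT3B. A pseudocount of 1 TPM left 540, 1143 and 648 calls over all genes in DNMT1, DNMT3A and EGFP against pUC19, 130, 411 and 355 in DNMT1, DNMT3A and DNMT3B against EGFP, and 20 in DNMT3A against DNMT3B, with the same number of members called. Fewer low genes can pass 2-fold with the larger pseudocount.

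For the 4 fusions against pUC19, DESeq2 called 2 members (NDRG1 and PDK1) and 992 genes where edgeR called 118. Without the filter edgeR called 1 member (NDRG1) and 252 genes, and with the GC and length offset 1 member (NDRG1). Limiting the genes to those with a GC value, an alternative chosen after seeing the data, called none. Leaving out each fusion in turn gave 65 to 95 genes and 0 members. For the 2 de novo methyltransferase fusions against the other 2, edgeR called 1052 genes without the filter where it called 1694 with it, and leaving out 1 library gave 18 to 3850 genes and 0 to 2 members: 3536 without DNMT1 (VEGFA and NDRG1 among them), 18 without DNMT3A, 53 without DNMT3B and 3850 without EGFP. The cause was not tested.

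Signs turned only for log2 fold changes smaller than their standard errors. For the 4 fusions against pUC19, BNIP3 became 0.0856 with the GC and length offset. Leaving out 1 fusion gave a range of -0.1216 to 0.0574 for VEGFA (above 0 without DNMT3A or DNMT3B), -0.1358 to 0.0411 for EGLN3 (above 0 without DNMT1 or EGFP) and -0.1081 to 0.0296 for SLC2A1 (above 0 without EGFP). In the comparison of 2 fusions with 2, the range was -0.0541 to 0.0962 for BNIP3 (below 0 without DNMT3A), -0.3052 to 0.0874 for ADM (above 0 without DNMT1 or DNMT3B) and -1.0927 to 1.1527 for ANKRD37 (above 0 without DNMT1 or DNMT3A). Of the other values of single members under alternatives, 366 kept their direction and their side of the limit, 7 passed it and 4 lost it.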
